A study of Mus musculus with 8 samples.

Results

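The mitochondrial carriers of the Slc25 family were followed in RNA from brown adipose tissue (BAT). They were taken as every gene of the count table whose symbol is Slc25a followed by a number, together with Ucp2 and Ucp3, which belong to the same family under another name. Ucp1, the thermogenic uncoupling protein, was not counted among them. The rule found 49 genes of the 56953 in the table. Of these, 35 had enough reads to be tested, among 9876 genes tested in all.

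C57BL/6J wild-type mice were 8 to 10 weeks old at injection. CAC mice, the model of cancer-associated cachexia, were injected with 3000000 Lewis Lung Carcinoma (LLC) cells in 100 µL, and CTR mice received PBS. BAT was collected from 4 mice of each group after up to 21 days, with 1 library per mouse. Mice of both sexes could be used, and the labels do not give the sex of each mouse or its tumor size. All tumors came from the same transplanted cell line.

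Libraries held 2454493 to 4827956 counts in CTR and 1823167 to 3392538 in CAC, and levels are given as CPM, counts after scaling each library to the same size. A gene with no count may still have up to 3 counts, or 0.661 to 1.62 CPM depending on the library, and this limit covers counting error only. Mitochondrially encoded genes took 28.5% to 33.8% of the counts. Ucp1, which defines the tissue, lay between 3590 and 4932 CPM in every library, and the summed level of 8 brown adipocyte markers overlapped between the groups, at 14896 to 16688 CPM in CTR and 14672 to 16871 CPM in CAC. Of the 8, Ppargc1a alone was called (higher in CAC, adjusted p = 0.0201), meaning an adjusted p below 0.05 from edgeR. The median log2 fold change of the list was 0.04. Cidea, Ucp1 and Fabp4 made up most of the sum. Estimates were above 0 in 6 of the 8 and below 0 in Plin1 (-0.27) and Fabp4 (-0.24). Plin1 lay at 644 to 680 CPM in CTR and at 489 to 617 CPM in CAC, a separation that 3.40% of all tested genes had in this direction. The neutrophil list summed to 6.48 to 6.92 CPM in CTR and 164 to 432 CPM in CAC, and its 3 tested genes, S100a8, S100a9 and Retnlg, were called. S100a8 and S100a9 made up most of this sum, and the other 5 genes of the list, Camp, Csf3r, Ltf, Mmp8 and Ngp, lay at 0 to 3.24 CPM and were not tested. The macrophage list summed to 203 to 229 CPM in CTR and 283 to 393 CPM in CAC, with 2 of 7 tested genes called. In the erythroid list all 6 genes had higher estimates in CAC and 1 was called. In the skeletal muscle list all 10 did and 1 was called, but the summed levels of both lists overlapped between the groups. Among all tested genes, 0.932% were called and 50.0% had a log2 fold change below 0.

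Carriers of this family sit in the inner mitochondrial membrane, with a few exceptions, and move metabolites, nucleotides, cofactors, phosphate or protons between the cytosol and the matrix. They are encoded in the nucleus, made in the cytosol and inserted into the membrane by the TIM22 pathway. Brown adipocytes, which are packed with mitochondria that burn fatty acids to make heat, depend on carriers that bring in acylcarnitines, branched-chain amino acids and iron, and that exchange ADP for ATP. Ucp1, the best known member of the family in this tissue, lets protons flow back without making ATP.

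No carrier differed between CAC and CTR past the threshold, and the largest estimates were those of Slc25a37 and Ucp2, higher in CAC, and of Slc25a42, lower in CAC. With edgeR's quasi-likelihood test and an adjusted p below 0.05, 0 of the 35 tested carriers were called, where 0.932% of all tested genes were. DESeq2 and a limma-trend test on the authors' normalized values each called 1 carrier, Slc25a37, against 0.476% and 0.870% of the genes they tested. The DESeq2 share is over 23719 genes with a p-value. Some of these, Slc25a24 among them, had no adjusted p and could not be called. With an unadjusted p below 0.05 in edgeR's test, reached by 12.9% of all tested genes, 2 carriers were higher in CAC, Slc25a37 and Ucp2, and 3 were lower, Slc25a42, Slc25a23 and Slc25a22. The corresponding shares of all tested genes were 7.01% and 5.93%. The CAC libraries lay wholly below the CTR libraries in 3 carriers, Slc25a42, Slc25a22 and Slc25a20, and wholly above them in 1, Slc25a37, and among all tested genes such separations made up 3.40% and 3.64%. The estimated log2 fold change of CAC against CTR was below 0 in 23 of the 35 carriers and in 50.0% of all tested genes. Its median was -0.11 over the carriers and -4.67e-05 over all tested genes. Without CAC replicate 4 the median over the carriers was -0.05.

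The precision of these estimates differed between carriers. In 19 of the 35 the 95% interval of the fold change lay within 1.5-fold in either direction, and in 29 it lay within 2-fold, compared with 4679 and 8433 of all 9876 tested genes. Summed over the 49 carriers, the level was 3935, 4199, 4209 and 4199 CPM in the CTR libraries and 4341, 4058, 3882 and 4129 CPM in the CAC libraries. The sums overlapped, with both the highest and the lowest library in CAC. In bulk tissue, fewer cells of a type and less RNA per cell cannot be told apart. Levels are given per gene and were not divided by transcript length, so differences are read between libraries and not between genes. Mean CPM also served to choose which carriers of a role group to print, without correction for length.

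**Figure D1:**
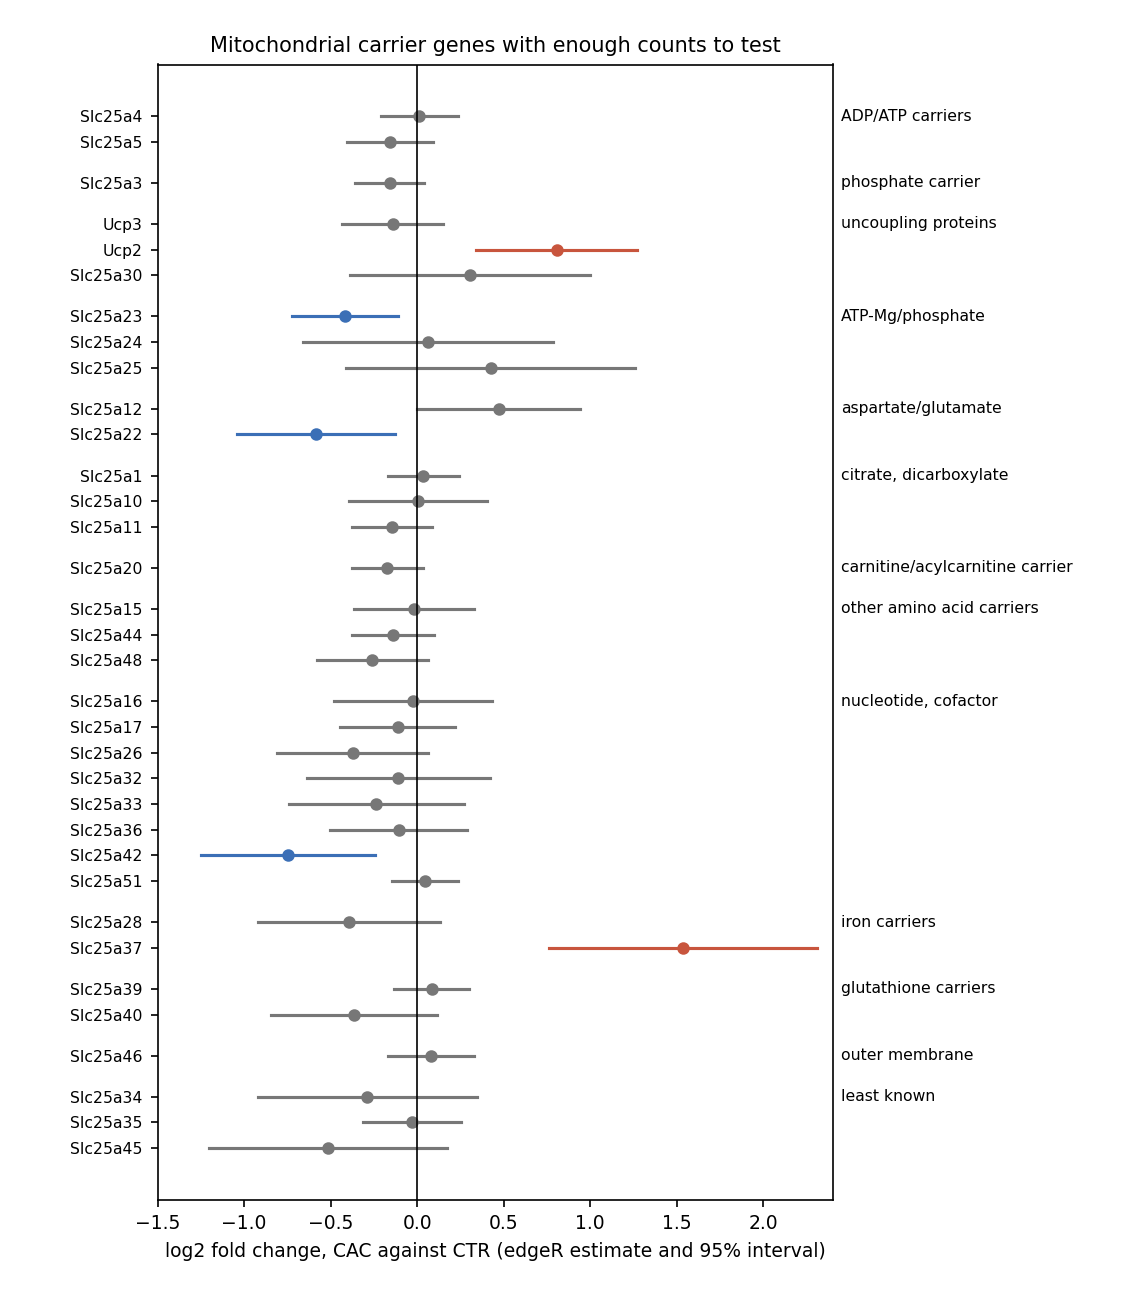
Log2 fold change of CAC against CTR for tested carriers, grouped by role, with points for the edgeR estimates and bars for the 95% intervals, coloured where the unadjusted p was below 0.05. Estimates run from -0.75 for Slc25a42 to 1.54 for Slc25a37, and most lie below 0.

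The plot of fold changes by role shows that most intervals cross 0. The 5 that do not are those of the carriers with an unadjusted p below 0.05, and none of these was called. The plot of levels by library shows these 5 together with Slc25a20, in which the groups did not overlap although its interval crosses 0.

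**Figure D2:**
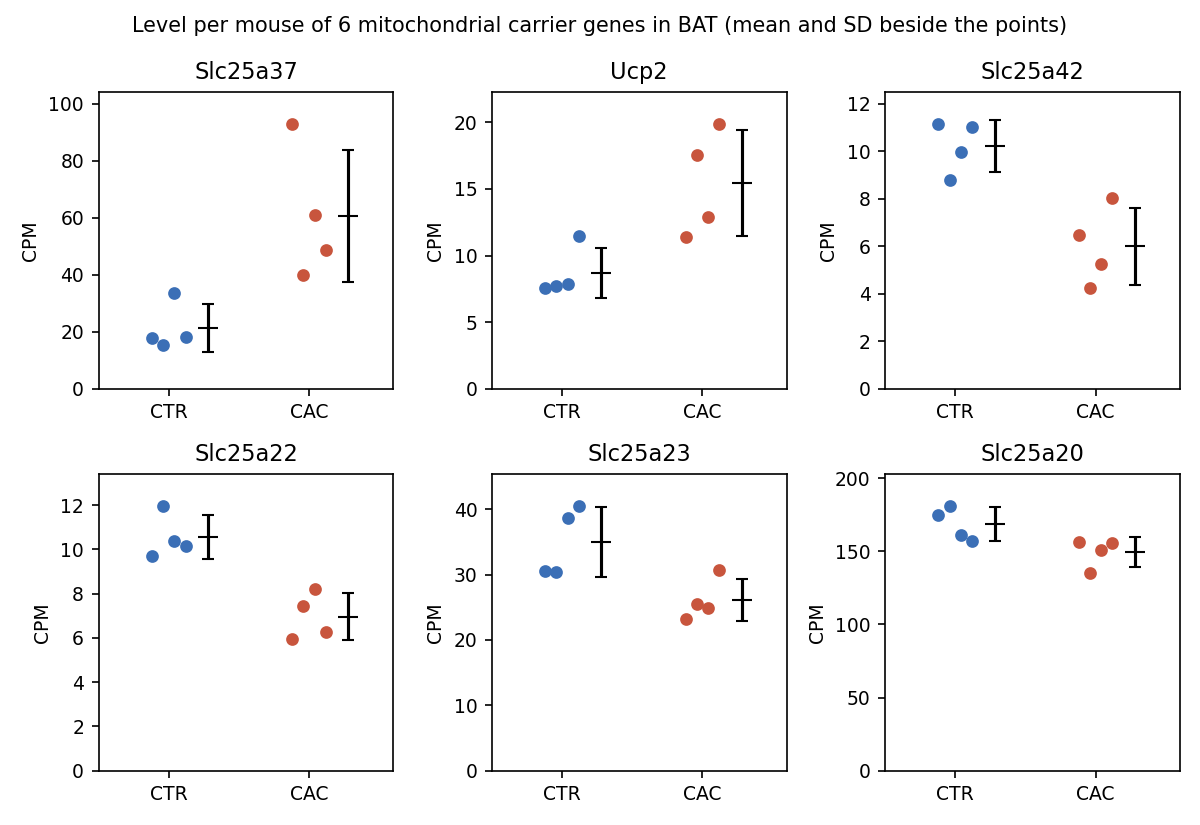
Level in CPM of 6 carriers in every library, on axes that start at 0, with points for libraries and the group mean with SD beside them. The CAC libraries of Slc25a42, Slc25a22 and Slc25a20 lie below their CTR libraries, those of Slc25a37 lie above, and those of Ucp2 and Slc25a23 overlap with CTR in 1 library.

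Iron enters the mitochondrion for heme and iron-sulfur cluster synthesis through 2 related carriers, mitoferrin 1 (Slc25a37), known for its role in developing red blood cells, and mitoferrin 2 (Slc25a28), which is found in most tissues. Slc25a37 (ENSMUSG00000034248.8, chr14:69241848-69285112 of GRCm38, minus strand) was at 18.0, 15.4, 33.6 and 18.3 CPM in the CTR libraries and at 93.0, 39.9, 60.9 and 48.8 CPM in the CAC libraries. The groups did not overlap, with CAC replicate 1 the highest and CTR replicate 3 the highest of its group. Its mean was 21.3 ± 8.28 CPM among the 4 CTR mice and 60.7 ± 23.2 CPM among the 4 CAC mice (± SD). The fold change was 2.90, with a 95% interval from 1.69 to 4.96, and edgeR's adjusted p was 0.101. This carrier was called in 7 of 17 alternative settings, including the fits without CTR replicate 3 (edgeR, adjusted p = 0.00912) and without CAC replicate 1 (edgeR, adjusted p = 0.0230), and its adjusted p ranged from 6.21e-06 to 0.258 over the 17. In GENCODE M21 the gene overlaps Gm20236 on the same strand and 3 genes on the opposite strand, and 3 of its 8 values held fractions of reads. The other 5 alternatives that called it were DESeq2, limma-trend and edgeR without a filter on low counts, without its robust option or with the replicate number as a block. These edgeR fits called 1.33% (without CTR replicate 3), 1.26% (without CAC replicate 1), 1.48% (no filter), 0.871% (no robust option) and 1.42% (block) of the genes they tested.

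The summed level of the erythroid markers was 9983, 9551, 19268 and 6180 CPM in CTR and 44326, 14636, 37907 and 23677 CPM in CAC. As for Slc25a37, CTR replicate 3 was the highest of its group and CAC replicate 1 the highest of all, whereas CTR replicate 4 had the lowest sum but not the lowest Slc25a37 level. Slc25a37 per 1000 CPM of the sum was 1.62 to 2.96 in CTR and 1.61 to 2.72 in CAC. The ratio of the Slc25a37 level to that of Alas2, the erythroid enzyme that starts heme synthesis, was 1.72, 1.53, 1.31 and 3.19 in CTR and 1.51, 2.21, 1.44 and 1.51 in CAC. Both ratios, which were added after the values were seen, overlapped between the groups. The neutrophil and macrophage sums were also higher in every CAC library, and the part of any of these markers in the Slc25a37 result was not tested. The plot of carrier levels against marker sums shows these values library by library.

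**Figure D3:**
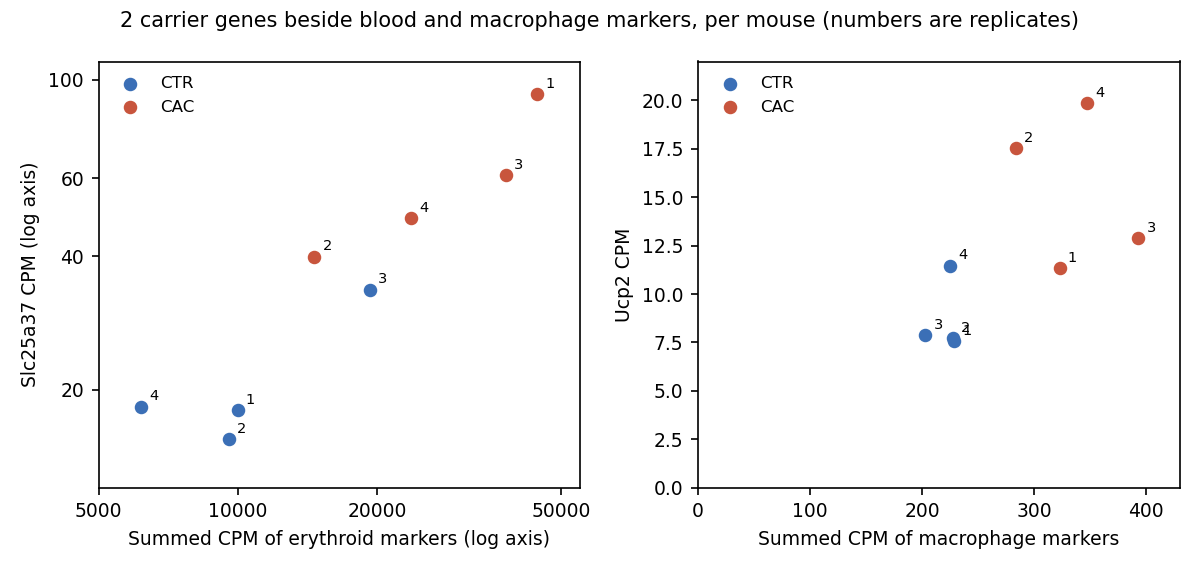
Level of Slc25a37 against the summed erythroid markers and level of Ucp2 against the summed macrophage markers, in CPM, with 1 numbered point per library coloured by group and log axes in the Slc25a37 panel. The CTR library with the highest erythroid sum, 19268 CPM, is also the one with the highest Slc25a37 level of its group, 33.6 CPM.

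Slc25a28 was at 10.4, 11.2, 6.22 and 7.72 CPM in CTR and at 4.87, 6.38, 7.91 and 7.32 CPM in CAC. These ranges overlapped, with the lowest library in CAC and the highest in CTR. This gave a log2 fold change of -0.39, with a 95% interval from -0.92 to 0.13 (edgeR, adjusted p = 0.547). The balance of both mitoferrins, as the log2 ratio of their counts with 0.5 added, was 1.22 ± 0.85 among the 4 CTR mice and 3.10 ± 0.73 among the 4 CAC mice (± SD). In an exact two-sided permutation test over the libraries this difference of 1.89 had p = 0.0286, the smallest that 4 against 4 can give, and 0.0714 after Benjamini-Hochberg adjustment over the 5 pairs compared. This ratio uses the same Slc25a37 counts, and its relation to the markers was not tested.

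Uncoupling protein 2 (Ucp2) is found in many tissues, including cells of the immune system, and has been linked to limiting mitochondrial oxidant production, and Ucp3 is found mainly in skeletal muscle and BAT. Both genes lie side by side on chromosome 7, on the plus strand, with 6905 bases between the end of Ucp3 (ENSMUSG00000032942.15, chr7:100472990-100486432 of GRCm38) and the start of Ucp2 (ENSMUSG00000033685.14, chr7:100493337-100502020). Of 5 pairs of carrier genes that lie close together, they are the only one in which both genes had enough reads to be tested. Their promoters are printed from RefSeq (GRCm38.p6), each from 250 bases before the start to 50 after it, because these neighbours are compared as a pair. The Ucp3 window is chr7:100472741-100473040 and the Ucp2 window is chr7:100493108-100493407, both on the plus strand, with a GC content of 55% and 64.3%.
Ucp3: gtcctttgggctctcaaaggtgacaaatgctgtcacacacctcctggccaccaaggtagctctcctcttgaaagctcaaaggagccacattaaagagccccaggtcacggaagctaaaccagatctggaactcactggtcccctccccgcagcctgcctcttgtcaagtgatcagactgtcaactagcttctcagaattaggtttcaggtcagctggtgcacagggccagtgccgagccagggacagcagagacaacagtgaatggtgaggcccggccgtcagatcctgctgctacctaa
Ucp2: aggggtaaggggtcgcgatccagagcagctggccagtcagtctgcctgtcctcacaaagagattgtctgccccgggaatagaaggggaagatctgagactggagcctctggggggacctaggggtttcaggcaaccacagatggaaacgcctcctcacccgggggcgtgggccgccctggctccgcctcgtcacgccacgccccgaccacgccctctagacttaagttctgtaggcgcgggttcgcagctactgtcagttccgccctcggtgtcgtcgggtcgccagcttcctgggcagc
Neither window holds any of the 5 motifs searched, which is why no letters are in capitals. The motifs, each searched on both strands, were AAGGTCA for estrogen-related receptors, CCAAT for the CCAAT box, AGATAA for GATA factors, TGACGTCA for the cAMP response element and TATAAA for the TATA box.

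Ucp2 was at 7.56, 7.72, 7.88 and 11.5 CPM in CTR and at 11.4, 17.5, 12.9 and 19.9 CPM in CAC. Of the CAC libraries, 3 lay above every CTR library and CAC replicate 1 lay just below CTR replicate 4, so that the groups overlapped. The mean was 8.66 ± 1.88 CPM among the 4 CTR mice and 15.4 ± 3.97 CPM among the 4 CAC mice (± SD). The fold change was 1.75, with a 95% interval from 1.26 to 2.41 (edgeR, adjusted p = 0.0956). Without CTR replicate 4, in a fit that called 1.13% of its genes, Ucp2 was called (edgeR, adjusted p = 0.0461), as it was when genes with low counts were kept (edgeR, adjusted p = 0.0328), and over 17 alternatives its adjusted p reached 0.284. The macrophage markers summed to 229, 227, 203 and 225 CPM in CTR and 323, 283, 393 and 347 CPM in CAC. The neutrophil list, 6.48 to 6.92 CPM in CTR and 164 to 432 CPM in CAC, separated the groups as well, and the part of either list in the Ucp2 result was not tested. In GENCODE M21, Dnajb13 overlaps Ucp2 on the opposite strand, and whether reads were assigned by strand is not given in the sources used here.

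Ucp3 was at 48.9, 45.5, 42.3 and 56.9 CPM in CTR and at 36.8, 38.3, 43.7 and 56.1 CPM in CAC. These ranges overlapped, and CAC replicates 1 and 2 were the lowest libraries. The log2 fold change was -0.14, with a 95% interval from -0.43 to 0.15 (edgeR, adjusted p = 0.737). The log2 ratio of Ucp2 to Ucp3 counts was -2.67, -2.54, -2.39 and -2.30 in CTR and -1.67, -1.11, -1.75 and -1.49 in CAC. Every CAC ratio lay above every CTR ratio. The difference of 0.97 had p = 0.0286 in the exact two-sided permutation test and 0.0714 after adjustment over the 5 pairs. This ratio uses the same Ucp2 counts, whose own log2 fold change was 0.81, and is not a separate result. Slc25a30, a relative of the uncoupling proteins, had a log2 fold change of 0.30 (95% interval -0.39 to 1.00), and its other relatives Slc25a14 and Slc25a27 had too few reads to be tested.

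**Figure D4:**
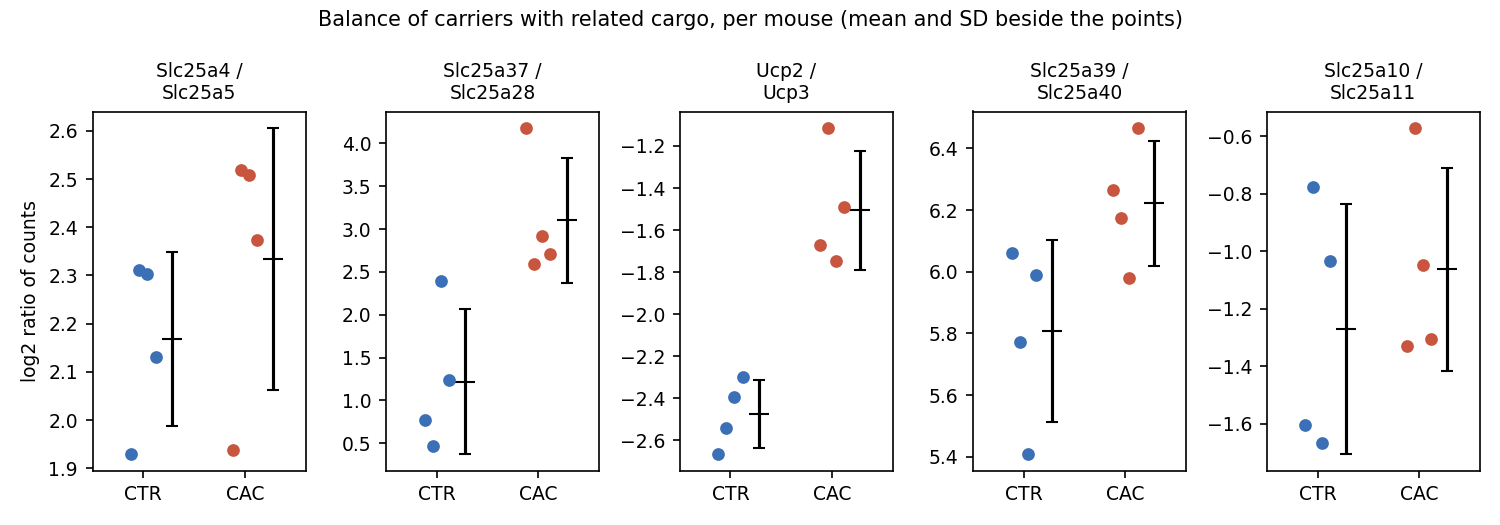
Log2 ratio of counts between related carriers in each library for 5 pairs, with points for libraries and the group mean with SD beside them. The ratio of Ucp2 to Ucp3 and that of Slc25a37 to Slc25a28 are higher in all 4 CAC libraries than in all 4 CTR libraries, and the other 3 pairs overlap.

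The plot of paired carriers shows the other 3 ratios in the same way. The balance of the glutathione carriers Slc25a39 and Slc25a40 was 5.81 ± 0.29 among the 4 CTR mice and 6.22 ± 0.20 among the 4 CAC mice (± SD), a difference of 0.41 with p = 0.0857 in the exact permutation test. The ratio of the ADP/ATP carriers Slc25a4 and Slc25a5 differed by 0.17 (exact permutation p = 0.257). The ratio of the dicarboxylate carrier Slc25a10 to the oxoglutarate carrier Slc25a11 differed by 0.21 (exact permutation p = 0.457).

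Cofactor and nucleotide carriers had estimates below 0 in 8 of 9 tested genes, against 50.0% of all tested genes. The estimates of 4 of these 8, Slc25a16, Slc25a17, Slc25a32 and Slc25a36, turned their sign when a library was left out. Of the 9, Slc25a42 alone had an unadjusted p below 0.05, where 5.93% of all tested genes were lower at that level. Slc25a42 brings coenzyme A into the matrix in exchange for adenine nucleotides. Its gene (ENSMUSG00000002346.17) lies at chr8:70184340-70212305 of GRCm38 on the minus strand. The promoter is printed for this carrier, which had the most negative estimate among those tested, with the CCAAT box in capitals, which reads ATTGG where it lies on the other strand. The RefSeq window is chr8:70212232-70212531 of GRCm38.p6, read on the minus strand, with a GC content of 65.7%.
Slc25a42: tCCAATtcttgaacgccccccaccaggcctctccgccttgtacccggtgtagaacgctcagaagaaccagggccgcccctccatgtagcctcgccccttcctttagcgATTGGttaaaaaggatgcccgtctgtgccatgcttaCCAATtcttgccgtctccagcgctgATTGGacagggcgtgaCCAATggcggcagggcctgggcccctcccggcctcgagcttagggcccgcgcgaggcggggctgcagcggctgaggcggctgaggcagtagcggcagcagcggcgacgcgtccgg
The 5 matches begin at bases 2, 109, 145, 170 and 186 of the window. CCAAT was held by 22 of 48 carrier windows (45.8%) and by 37.4% of all 32851 promoter windows of the same length. The 48 windows belong to 38 of the 49 carriers, some with several starts, and Slc25a37 has no entry. The other motifs were found in 3 carrier windows at most, with AGATAA in 6.25% of carrier windows and 11.2% of all windows, and TATAAA in 4.17% and 13.6%. AAGGTCA was found for Slc25a34 alone (2.08% against 4.72% of all windows), and TGACGTCA for Slc25a25 and Slc25a36 (4.17% against 1.79%). The median GC content was 59.3% in carrier windows and 52.7% in all windows. A match of letters is a description of the window and not a binding site.

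Slc25a42 was at 11.2, 8.79, 9.96 and 11.0 CPM in CTR and at 6.49, 4.25, 5.27 and 8.02 CPM in CAC. All 4 CAC libraries lay below all 4 CTR libraries. The mean was 10.2 ± 1.10 CPM among the 4 CTR mice and 6.01 ± 1.62 CPM among the 4 CAC mice (± SD), and the fold change was 0.596 with a 95% interval from 0.421 to 0.843. With an adjusted p of 0.155 in edgeR's test it did not pass the threshold, and it did not in any of the 16 alternatives that kept the gene, where the adjusted p ran from 0.144 to 0.38. The S-adenosylmethionine carrier Slc25a26 had a log2 fold change of -0.37 (95% interval -0.81 to 0.07, edgeR adjusted p = 0.481).

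Slc25a51 brings NAD into mitochondria. It was at 519, 605, 577 and 560 CPM in CTR and at 655, 565, 556 and 558 CPM in CAC. Apart from CAC replicate 1, which was the highest, the CAC libraries lay inside the CTR range. It had a log2 fold change of 0.05, with a 95% interval from -0.15 to 0.24. The folate and flavin carrier Slc25a32 spread widely within CAC, at 121, 81.9, 69.7 and 48.5 CPM, against 76.9 to 96.9 CPM in CTR. Both its highest and its lowest value were in CAC libraries, and its mean was 85.5 ± 8.55 CPM among the 4 CTR mice and 80.3 ± 30.5 CPM among the 4 CAC mice (± SD). The pyrimidine nucleotide carriers Slc25a33 and Slc25a36 had log2 fold changes of -0.23 and -0.11, the peroxisomal carrier Slc25a17 had -0.11, and Slc25a16 had -0.02, all with intervals across 0.

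Amino acids and fatty acids reach the matrix through several further carriers. Slc25a22 carries glutamate into the matrix together with a proton. Its gene (ENSMUSG00000019082.19) lies at chr7:141429744-141437892 of GRCm38 on the minus strand. It was at 9.72, 12.0, 10.4 and 10.1 CPM in CTR and at 5.95, 7.44, 8.20 and 6.27 CPM in CAC. All CAC libraries lay below all CTR libraries, and the fold change was 0.667 with a 95% interval from 0.486 to 0.916 (edgeR, adjusted p = 0.249).

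Slc25a12, the aspartate/glutamate exchanger of the malate-aspartate shuttle that is strong in muscle and brain, was at 9.36, 12.0, 20.3 and 9.92 CPM in CTR and at 13.0, 16.0, 19.3 and 19.9 CPM in CAC. The groups overlapped through CTR replicate 3, which was the highest of all libraries. Its estimate on the log2 scale was 0.47 with SE 0.23 (edgeR, adjusted p = 0.389). The muscle markers summed to 1364, 2394, 2986 and 1241 CPM in CTR and 2696, 3842, 4952 and 4488 CPM in CAC, with CTR replicate 3 also the highest of its group, and their part in this value was not tested. The other isoform, Slc25a13, had 0 to 4 counts in each library and was not tested.

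Slc25a20, the carnitine/acylcarnitine carrier, moves fatty acids into the matrix for oxidation. Its gene (ENSMUSG00000032602.7) lies at chr9:108662088-108684641 of GRCm38 on the plus strand. It was at 175, 181, 161 and 157.0 CPM in CTR and at 156.8, 135, 151 and 155 CPM in CAC. The groups did not overlap, but CTR replicate 4 and CAC replicate 1 were nearly equal. The log2 fold change was -0.17, with a 95% interval from -0.38 to 0.03 (edgeR, adjusted p = 0.493). The carnitine shuttle enzymes outside the family were Cpt1a, Cpt1b, Cpt2 and Crat. Estimates were below 0 in 2 of these 4, against 50.0% of all tested genes. None of the 4 had an unadjusted p below 0.05, against 12.9%.

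Slc25a44, through which brown adipocyte mitochondria take up branched-chain amino acids, was at 152, 154, 163 and 137 CPM in CTR and at 157, 149, 134 and 111 CPM in CAC. The ranges overlapped and CAC replicate 4 was the lowest. Its log2 fold change was -0.14, with a 95% interval from -0.38 to 0.10. Slc25a15, the ornithine carrier, had -0.02, and Slc25a48, which has been linked to choline uptake, had -0.26 with an interval from -0.58 to 0.06.

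The ADP/ATP carriers and the carriers of phosphate and citrate serve energy and lipid metabolism in most cells, and their groups overlapped. The ADP/ATP carrier Slc25a4, the isoform of heart and muscle that exchanges matrix ATP for cytosolic ADP, was at 381, 408, 415 and 345 CPM in CTR and at 316, 373, 429 and 443 CPM in CAC. Its highest and lowest libraries were both in CAC. The log2 fold change was 0.01, with a 95% interval from -0.21 to 0.24 (edgeR, adjusted p = 0.976). Its sign was not stable, at -0.01 with upper quartile normalization or without a filter on low counts. The more widely expressed isoform Slc25a5 had -0.16 with an interval from -0.41 to 0.09, and 6 of its 8 values held fractions of reads. The testis isoform Slc25a31 had 0 to 2 counts in each library.

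Slc25a3, which supplies phosphate for ATP synthesis, was at 302, 353, 369 and 318 CPM in CTR and at 323, 279, 297 and 304 CPM in CAC. The ranges overlapped, although CAC replicates 2 and 3 were below every CTR library. Its log2 fold change was -0.16, with a 95% interval from -0.36 to 0.04 (edgeR, adjusted p = 0.516).

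Slc25a1 exports citrate, from which cytosolic acetyl-CoA for lipid synthesis is made. It was at 729, 771, 685 and 889 CPM in CTR and at 722, 863, 738 and 831 CPM in CAC, and all CAC libraries lay inside the CTR range. Its log2 fold change was 0.04, with a 95% interval from -0.17 to 0.24. Slc25a10 had 0.01 with an interval from -0.39 to 0.41, and its sign turned with upper quartile normalization (-0.01) and without a filter (-0.02). Slc25a11 had -0.15 with an interval from -0.38 to 0.08.

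Slc25a23 is one of the ATP-Mg/phosphate carriers, which are gated by calcium and adjust the adenine nucleotide content of the matrix. Its gene (ENSMUSG00000046329.15) lies at chr17:57043711-57059863 of GRCm38 on the minus strand, and is overlapped on the opposite strand by Crb3 and Gm17168. It was at 30.6, 30.4, 38.6 and 40.6 CPM in CTR and at 23.2, 25.5, 24.9 and 30.7 CPM in CAC. Of the CAC libraries, 3 lay below every CTR library and CAC replicate 4 lay just inside the CTR range. The fold change was 0.748, with a 95% interval from 0.605 to 0.925 (edgeR, adjusted p = 0.21). Its relatives Slc25a24 and Slc25a25 had log2 fold changes of 0.06 and 0.43 with wide intervals, from -0.66 to 0.79 and from -0.41 to 1.26. Under limma-trend the Slc25a24 value was -0.08.

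Slc25a39, which imports glutathione into mitochondria, was at 541, 589, 643 and 694 CPM in CTR and at 769, 633, 583 and 632 CPM in CAC. The ranges overlapped, and its log2 fold change was 0.08 with a 95% interval from -0.13 to 0.30. Its relative Slc25a40 had -0.36 with an interval from -0.85 to 0.12. Slc25a46, an outer membrane protein of mitochondrial shape, was at 118, 117, 133 and 133 CPM in CTR and at 158, 140, 103 and 129 CPM in CAC, with its highest and lowest libraries in CAC. Its log2 fold change was 0.08.

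The least known carriers had estimates below 0 in all 3 tested members, against 50.0% of all tested genes. The log2 fold changes were -0.03 for Slc25a35, -0.29 for Slc25a34 and -0.52 for Slc25a45. The sign for Slc25a35 was not stable, with estimates from -0.14 to 0.0297 when a library was left out. None of the 3 had an unadjusted p below 0.05, against 12.9% of all tested genes. Slc25a35 was at 50.4, 56.2, 54.8 and 40.3 CPM in CTR and at 44.3, 61.7, 44.5 and 47.4 CPM in CAC. The ranges overlapped, all 8 of its values held fractions of reads, and Rangrf overlaps it on the opposite strand.

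The 14 carriers with too few reads were Slc25a2, Slc25a13, Slc25a14, Slc25a18, Slc25a21, Slc25a27, Slc25a29, Slc25a31, Slc25a38, Slc25a41, Slc25a43, Slc25a47, Slc25a53 and Slc25a54. Of these, Slc25a18, Slc25a41, Slc25a43 and Slc25a54 had 0 counts in every library, which allows a level of up to 1.62 CPM, the value for CAC replicate 1. Slc25a38, a glycine carrier that red cell precursors need for heme synthesis, had 7, 16, 5 and 12.5 counts in CTR and 7, 1, 10 and 11.5 counts in CAC. Slc25a47, known from liver, had 3, 9.5, 5 and 8 counts in CTR and 1, 1, 5 and 2 counts in CAC.

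Mitochondrial transport outside the family was counted in the same way in 39 genes, of which 34 were tested. By edgeR 0 of the 34 were called, against 0.932% of all tested genes. With an unadjusted p below 0.05 none was higher and 3 were lower in CAC, Mpc1 and Mpc2 among them, against 7.01% and 5.93% of all tested genes. The estimate was below 0 in 21 of the 34, and the median log2 fold change was -0.02. Without CAC replicate 4 the count was 16 and the median turned to 0.01, and without CAC replicate 1 the median was -0.08. Mpc1 and Mpc2 together form the mitochondrial pyruvate carrier. Mpc1 was at 97.5, 89.5, 93.4 and 98.8 CPM in CTR and at 66.5, 65.9, 74.7 and 73.6 CPM in CAC, and Mpc2 at 613, 641, 643 and 610.3 CPM in CTR and at 494, 489, 564 and 565 CPM in CAC. In both genes all CAC libraries lay below all CTR libraries, as in 3.40% of all tested genes.

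The log2 fold change of Mpc1 was -0.43, with a 95% interval from -0.65 to -0.21 (edgeR, adjusted p = 0.0559). Mpc1 was called in 3 of 17 alternatives. Its adjusted p was 0.0466 with upper quartile normalization, 0.0228 without a filter on low counts and 0.0417 by DESeq2. These fits called 0.871%, 1.48% and 0.476% of their genes, the last over all genes with a DESeq2 p-value. The log2 fold change of Mpc2 was -0.25 (edgeR, adjusted p = 0.229). The TIM22 pathway, which inserts carriers into the membrane, had estimates below 0 in 7 of 9 tested genes with a median of -0.13, against 50.0% of all tested genes, and none of the 9 had an unadjusted p below 0.05, against 12.9%. The inner membrane carriers outside the family, Mpc1 and Mpc2 included, had 2 of 6 below 0 and a median of 0.12, and the ABC transporters had 3 of 3 below 0. The calcium uniporter genes were evenly divided, with 3 of 6 below 0, and the outer membrane pores and carrier-like proteins had 4 of 6 below 0.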

How the data were processed

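Libraries were made from 50 ng of total BAT RNA per mouse, 4 in each group, and sequenced with 75-cycle reads. The authors checked reads with FastQC 0.11.9, aligned them to mm10 with HISAT2 2.2.1 and counted them per gene with featureCounts, multi-mapping reads included. The deposited table holds expected counts of 56953 genes, and 25.1% to 28.4% of each library's values above 0 are fractional, so related genes may share reads. The authors also deposited a normalized signal, made with DESeq2, for 24792 genes. Totals per library and the level that 3 counts stand for are given at the opening.

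Expected counts were rounded and tested with edgeR 4.0.16 in R 4.3.3 (filterByExpr, TMM, quasi-likelihood test with the robust option, no covariates), with Benjamini-Hochberg adjustment over 9876 genes and a threshold of 0.05. The study's own tool, DESeq2 (1.42.0), was an alternative. CPM used TMM library sizes. Standard errors were the log2 fold change divided by the root of the F statistic, and 95% intervals used the degrees of freedom of the fit. P-values of this test set the difference between the groups against the spread between the 4 mice of a group. That spread was moderated with information from the other tested genes.

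Log2 ratios of 5 carrier pairs used counts with 0.5 added and were compared between groups by an exact two-sided permutation test (70 assignments). The edgeR steps were tested on simulated data of 9615 genes. They called 72 of 94 genes with a log2 change of 1, 96 of 96 with a change of 2, and 8 of 9425 with none. Simulated counts were drawn independently for each gene, without differences between mice that many genes share. The calls pool genes of all levels, so they need not hold for carriers with low counts. Coordinates and overlaps are from GENCODE M21 (GRCm38), matched by Ensembl ID without version for all 49 carriers. Promoters are from RefSeq.

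The carriers and gene lists were chosen with earlier results of these data known. Carriers were given in every library where the unadjusted p was below 0.05, the groups did not overlap, or the mean CPM was the highest of the role group, and of the other mitochondrial transport genes those with an unadjusted p below 0.05 were named. Some genes that this rule or the family covers are counted in the totals but not reported here by name. Slc25a5, Slc25a28, Slc25a32, Slc25a38 and Slc25a47 were added with their values seen. Alternatives were library size and upper quartile normalization, removal of mitochondrially encoded genes, no filter, a minimum of 10 counts in each library, a block for the replicate number, no robust option, DESeq2, each library left out, and limma-trend (version 3.58.1) on log2 of the normalized signal plus 1. Python 3.11.15 was used with pandas 2.3.3, numpy 2.4.6, scipy 1.17.1 and matplotlib 3.10.9. Protein measurements and protein sequences were not analysed here.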

Additional observations from a re-analysis of the deposited data

Results flagged for a closer look

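In 7 of 100 groups of 4 libraries checked, the highest or lowest library stood far from the other 3 by Dixon's 95% criterion, and chance gives about 1 in 20. Slc25a37 was at 33.6 CPM in CTR replicate 3 and at 15.4 to 18.3 CPM in the other CTR libraries. Ucp2 was at 11.5 CPM in CTR replicate 4 and at 7.56 to 7.88 CPM in the others. Slc25a51 was at 655 CPM in CAC replicate 1 and at 556 to 565 CPM in the others. Slc25a11 was at 77.7 CPM in CAC replicate 4 and at 65.1 to 67.0 CPM in the others. The carriers summed to 3935 CPM in CTR replicate 1 and to 4199 to 4209 CPM in the other CTR libraries. The brown adipocyte markers summed to 16688 CPM in CTR replicate 4 and to 14896 to 14990 CPM in the others, and the macrophage markers to 203 CPM in CTR replicate 3 and to 225 to 229 CPM in the others. Slc25a37 was called without CTR replicate 3, and also without CAC replicate 1, and Ucp2 was called without CTR replicate 4.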

How the results depend on the processing

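Over 17 alternatives, the genes called of all tested went from 92 to 351 without a filter on low counts, to 140 with the replicate number as a block, and to 42 to 135 with a library left out (42 without CTR replicate 1, 60 without CAC replicate 3). Called carriers went from 0 to 2 without a filter (Slc25a37 and Ucp2) and to 1, Slc25a37, with the replicate block, without the robust option, by DESeq2 and by limma-trend, and to 0 to 1 with a library left out. Carriers lower at an unadjusted p below 0.05 numbered 3 to 5 with a library left out. Those with an estimate below 0 ran from 19 to 25, and the median from -0.15 to -0.05. The 19 came from the fit with a minimum of 10 counts in each library, which left out some carriers, Slc25a42 among them. With a library left out, estimates below 0 numbered 20 to 25. Of the other transport genes, called genes went from 0 to 1, Mpc1, with upper quartile normalization, without a filter and by DESeq2, those higher at an unadjusted p below 0.05 to 0 to 2 with a library left out, and the median from -0.08 to 0.01. The cause was not tested. Deviations of same-numbered libraries of both groups had correlations of 0.03, -0.03, 0.02 and 0.04. Those of libraries with different numbers ran from -0.06 to 0.04, and not every library correlated best with its own number. Values this close to 0 cannot show whether the numbers pair the mice, and the labels do not say. Slc25a37 kept a positive estimate, 1.29 to 1.80, as did Ucp2, 0.65 to 1.01. Slc25a42 ran from -0.93 to -0.64, Slc25a23 from -0.51 to -0.32 and Slc25a22 from -0.70 to -0.52, none called in any alternative that tested it. Some small estimates turned their sign. Slc25a24 was at -0.0755 by limma-trend. Slc25a15 was at 0.00425 with the replicate block and 0.00709 by limma-trend. Slc25a4 was at -0.00760 with upper quartile normalization and -0.00989 without a filter, and Slc25a10 at -0.0148 and -0.0190. With a library left out, estimates ran from -0.16 to 0.28 for Slc25a24, -0.00722 to 0.0768 for Slc25a51, -0.0838 to 0.0494 for Slc25a15, -0.0466 to 0.11 for Slc25a4, -0.24 to 0.11 for Slc25a36, -0.14 to 0.13 for Slc25a16, -0.14 to 0.0297 for Slc25a35, -0.14 to 0.15 for Slc25a10, -0.36 to 0.0833 for Slc25a32, -0.20 to 0.00134 for Slc25a17, -0.0159 to 0.12 for Slc25a1 and -0.00700 to 0.19 for Slc25a46. Both pair ratios that separated the groups kept their sign in 10 alternatives, at 1.53 to 2.28 for Slc25a37 to Slc25a28 and 0.84 to 1.05 for Ucp2 to Ucp3, and with 4 numbered pairs a sign-flip test cannot go below 0.125. The 14 carriers left out by edgeR's filter had few counts at this depth.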
